A study of Mus musculus with 6 samples.

Results

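The mitochondrial carrier family, the Slc25 genes with their relatives Ucp1, Ucp3, Mtch1 and Mtch2, was examined in the brain of 7-day-old mice after ethanol. Members were taken by gene symbol from the array's annotation, a rule that uses no measured value but was set with earlier results of these data known. Each gene was represented by its probeset with the highest mean over the 6 arrays. This gave 50 members among 19936 genes with a probeset of their own, and Ucp2 was not analysed here. All mice were male C57BL/6J pups of postnatal day 7, an inbred laboratory strain, and the labels give no transgene or deletion for either group. The ethanol pups received a 20% solution in saline under the skin, in 2 doses of 2.5 g/kg given 2 h apart, and the controls received saline alone. Whole brains were taken 4 h after the first injection, and each array carried equal amounts of RNA from 3 males, every one of another litter. There were 2 ethanol pools (arrays 2 and 4) and 4 saline pools (arrays 1, 3, 5 and 6). Every ethanol pup had a saline littermate in the study, but the labels do not say which pools hold the pairs.

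Carriers of this family sit mostly in the inner mitochondrial membrane, which is impermeable to most charged metabolites. They exchange ADP for ATP, bring in phosphate, move amino acids, carboxylates and coenzymes, and deliver iron for haem and iron-sulphur clusters. In brain the aspartate/glutamate carrier Aralar (Slc25a12) serves the malate-aspartate shuttle, by which neurons pass cytosolic reducing equivalents to the respiratory chain. Some relatives lie elsewhere: Mtch1, Mtch2 and Slc25a46 in the outer membrane, and Slc25a17 in the peroxisome.

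Values are log2 intensities as deposited, and a change is the log2 difference, ethanol minus saline, with the standard error (SE) of a limma fit over all tested genes. Precision is limited by the small number of arrays. Genes in the lowest 25% by mean were not tested, which left 14952 genes. The 95th percentile of 1190 olfactory and vomeronasal receptor genes, 6.19, served as the upper edge of background. Whole-brain identity was checked with fixed marker lists: all 9 neuronal, 7 astrocyte, 7 oligodendrocyte lineage and 6 endothelial markers matched lay above background, as did 6 of 7 microglial markers, all but Aif1. Only 2 of 6 brown fat markers (Dio2 and Ppargc1a) and 1 of 6 testis germ cell markers (Dazl) did. Of 6 skeletal muscle markers 3 did (Acta1, Ckm and Tnnt3), with changes of -0.20, -0.11 and -0.05, where the groups were separate for Acta1 and overlapped for the others. Of 7 pituitary markers, 2 (Gh and Cga) lay above background. The list had a mean of 6.13 to 6.34 on the saline arrays against 5.93 and 5.50 on ethanol arrays 2 and 4. Gh differed by -1.52 ± 0.38 (SE) and Cga by -1.20 ± 0.21, both with separate groups. The SD between the 2 ethanol arrays was 1.37 for Gh and 0.81 for Cga, against 0.36 and 0.12 with saline. Changes of all 4 tested pituitary markers lay below 0. Both ethanol arrays lay below all saline arrays for 2 of 9 neuronal, 1 of 7 astrocyte and 1 of 7 oligodendrocyte lineage markers. The same held for 1 of 6 tested microglial and 1 of 6 endothelial markers, beside 14.9% of all tested genes. In these lists 0 markers lay above, against 7.68%. Olig2 differed by -0.32 ± 0.07 (limma adjusted p = 0.0827), and the list medians ran from -0.0444 to -0.00173. Dio2 differed by -0.27 ± 0.07 with separate groups. The part of these marker values in the results below was not tested. In a whole brain, fewer cells of a type and less RNA per cell cannot be told apart. Along the first principal component, with 40.9% of the variance, saline array 3 lay at 13.5 and the other saline arrays at -2.13 to 2.95. Ethanol arrays 2 and 4 lay at the opposite end, at -6.61 and -7.49, beyond all saline arrays. Among the tested members, saline array 3 was the lowest saline array for 24 and the highest for 7.

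Most members were detected. Of the 50, 36 had a mean above the background edge and 14 at or below it, and 43 passed the filter on dim genes. The 7 that did not pass were Slc25a31, the ADP/ATP carrier known from testis, Slc25a21, the oxodicarboxylate carrier, Slc25a34, Slc25a48, Slc25a54, Ucp1 and Ucp3. Ucp1, the uncoupling protein of brown fat heat production, had 5.28, 5.26, 5.38 and 5.30 on saline arrays 1, 3, 5 and 6 and 5.62 and 5.26 on ethanol arrays 2 and 4. Every one of these values lay within background. Ucp3, the muscle relative, lay between 5.48 and 5.59 on the saline arrays and at 5.52 and 5.57 with ethanol, also within background. Slc25a21 had 5.13, 5.15, 5.22 and 5.17 with saline against 4.92 and 5.05 with ethanol, so that its groups did not overlap, at levels that give no measure of the transcript. Tested but near background were Slc25a2, Slc25a13, Slc25a29, Slc25a33, Slc25a41, Slc25a45 and Slc25a47. Citrin (Slc25a13), the liver counterpart of Aralar, lay at 6.17 ± 0.09 (SD, n = 4) with saline.

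**Figure D1:**
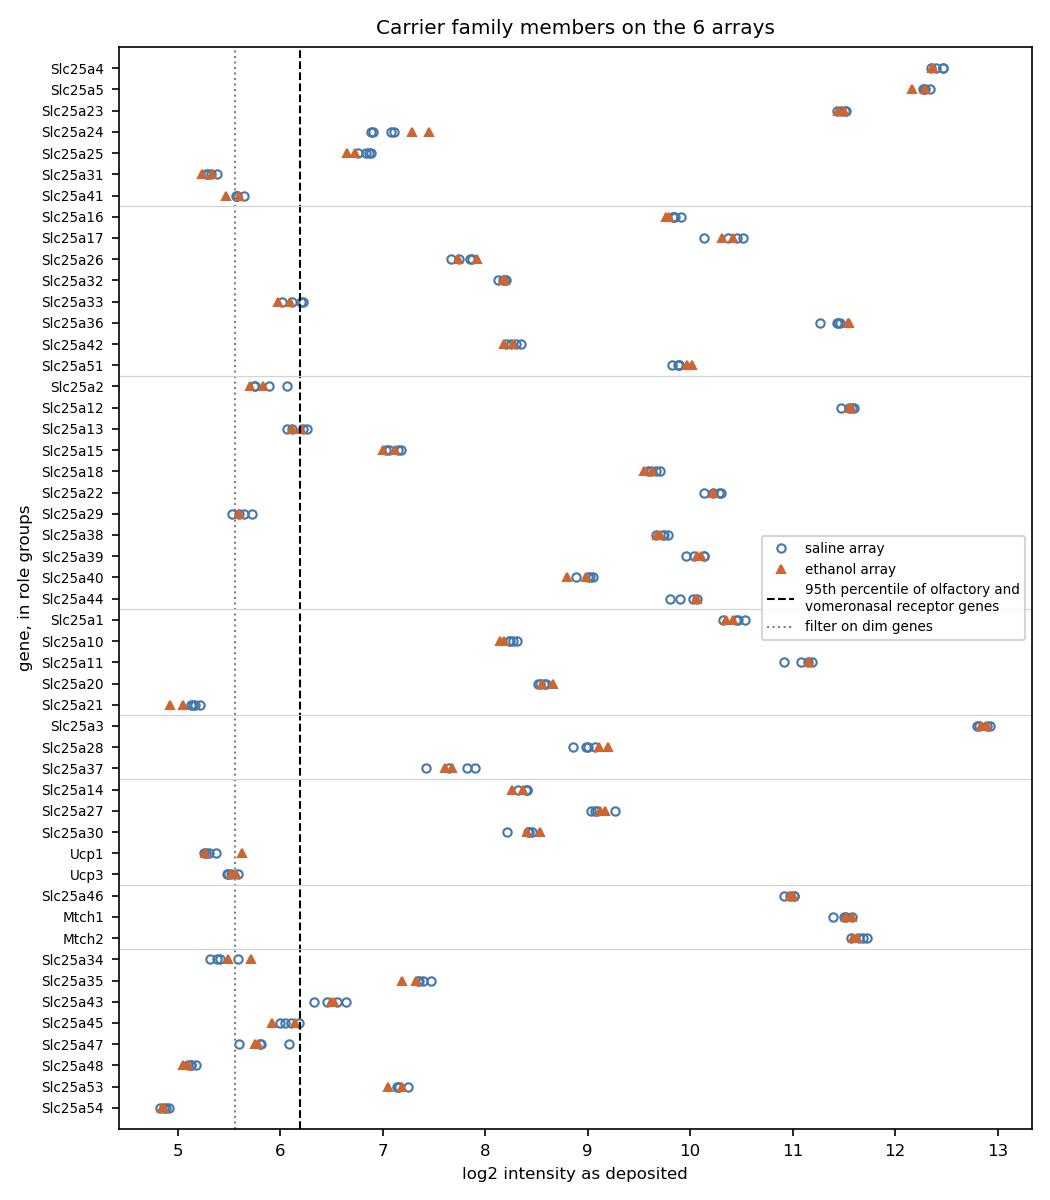
Log2 intensity of the 50 members on each of the 6 arrays, in role groups, with saline arrays as open circles and ethanol arrays as triangles. The dashed line is the background edge of 6.19 and the dotted line the filter on dim genes. Ucp1 and Ucp3 lie left of the dashed line on every array. For most members the triangles and circles overlap, though often with a triangle outside the range of the circles. Intensities of different probesets are not a ranking of transcript abundance.

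No member passed the test between ethanol and saline, where 12 of 14952 genes (0.0803%) did, 0.0602% higher and 0.0201% lower. In limma 3 of 43 tested members had an unadjusted p under 0.05, Slc25a24 and Slc25a28 higher and Slc25a25 lower, or 6.98% against 12.3% of all tested genes (3.85% higher and 8.44% lower). With the arrays centred on their medians there were 5, 4 higher and 1 lower (Slc25a36 and Slc25a51 added), and the share of all tested genes was 12.6%. Without saline array 3 there were also 5, 3 higher and 2 lower. The groups did not overlap, with both ethanol values outside the saline range, for 8 members, 4 on each side, or 18.6%, beside 22.6% of all tested genes (7.68% above and 14.9% below). Their changes had a median of -0.02, the same as the -0.02 over all tested genes, and 26 of 43 (60.5%) lay below 0 against 58.6% overall. Apart from the smaller shares at an unadjusted p and with both arrays below saline (9.30% against 14.9%), these figures lay close to those of all tested genes.

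**Figure D2:**
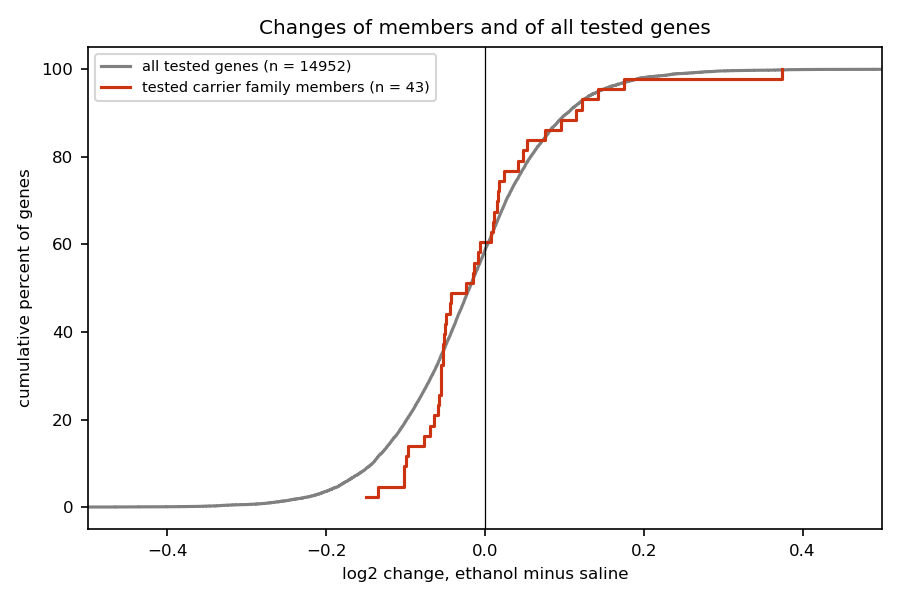
Cumulative percent of genes by log2 change, ethanol minus saline, for the 43 tested members (red) and all 14952 tested genes (grey). The curves cross 0 at 60.5% and 58.6%, and 1 member, Slc25a24 at 0.37, lies apart from the others on the right.

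The fit also bounds how large a change in signal could have been missed. The 95% interval of the change lay within 0.263 log2 units of 0, a 20% increase or the matching decrease, for 33 of 43 tested members. It lay within 0.322, a 25% increase, for 41, with Slc25a24 and Slc25a28 as the exceptions. Both counts include members near background, where a narrow interval does not bound the change of the transcript. The median SE of the members was 0.0657, and their median SD among the saline arrays was 0.0745, beside 0.0739 for all tested genes. In simulated data of the same size the fit recovered 86% of genes changed by 0.5 log2 units, with 10 false calls, and smaller changes were not simulated. The simulated noise was independent between genes and arrays, and more genes were changed in it than passed here. The 86% may therefore be too high for these arrays.

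**Figure D3:**
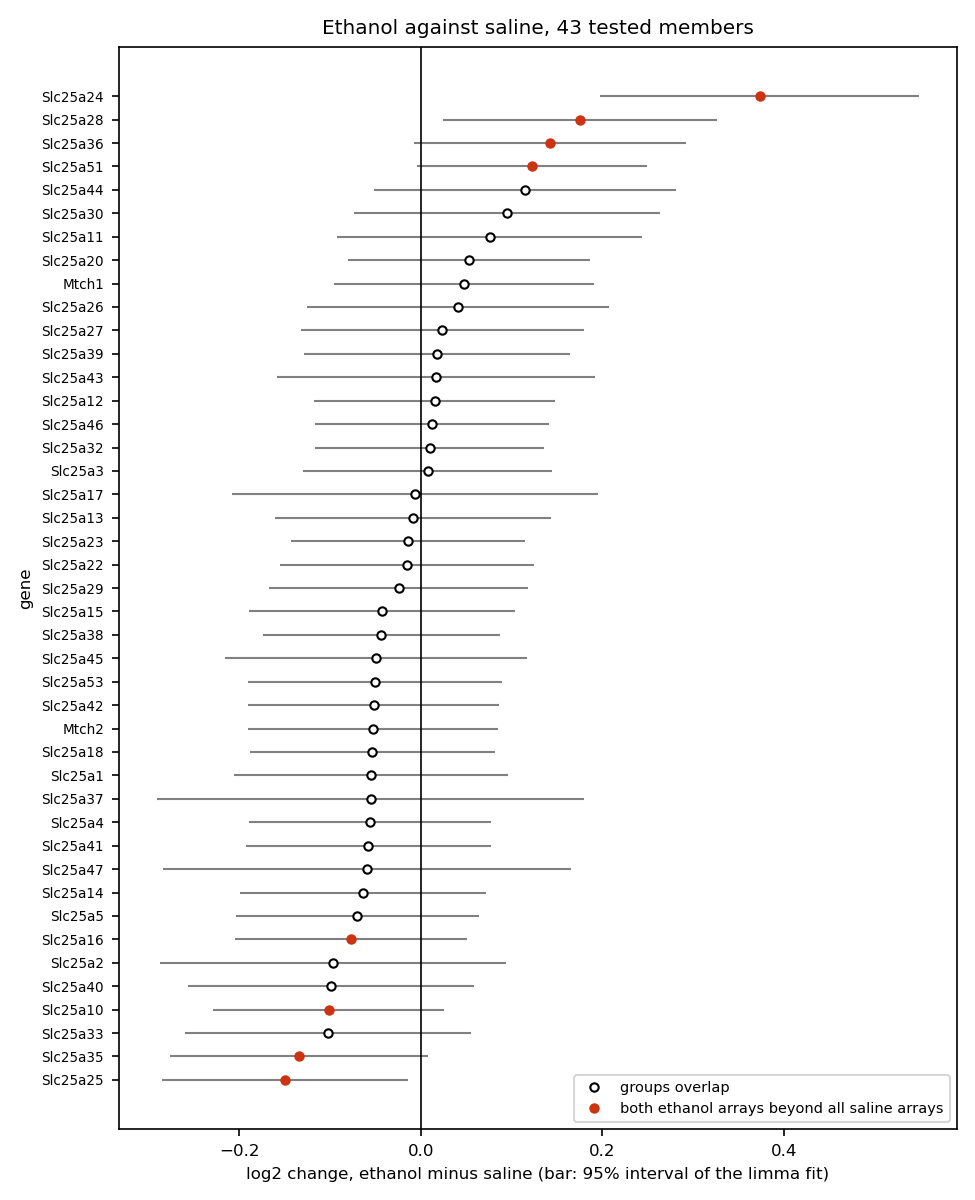
Log2 change, ethanol minus saline, of the 43 tested members with the 95% interval of the limma fit as a bar, sorted by size. Filled points mark the 8 members whose groups do not overlap; the interval excludes 0 for Slc25a24, Slc25a28 and Slc25a25, before any adjustment for the number of genes.

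Among the tested members, the adenine nucleotide carriers held the largest differences on either side. Slc25a24 (SCaMC-1), a calcium-regulated carrier that exchanges ATP-Mg for phosphate and so sets the adenine nucleotide content of the matrix, had 6.91, 6.89, 7.08 and 7.12 on saline arrays 1, 3, 5 and 6. On ethanol arrays 2 and 4 it had 7.29 and 7.46, above every saline value. The difference was 0.37 ± 0.08 (SE), 29.5% higher with ethanol, with a 95% interval of 0.20 to 0.55, and it did not pass among all genes (limma adjusted p = 0.0945, rank 89 by p of 14952). Leaving out single arrays gave changes of 0.29 to 0.46, the adjusted p in limma ranged from 0.0756 to 0.521 over all alternatives, and both extremes of the change came from leaving out an ethanol array.

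Its paralogue Slc25a25 (SCaMC-2), of the same ATP-Mg/phosphate exchange, lay the other way. It had 6.84, 6.76, 6.88 and 6.87 with saline and 6.65 and 6.73 with ethanol, so both ethanol arrays were below all saline arrays, with ethanol array 4 close to saline array 3. The difference was -0.15 ± 0.06 (limma adjusted p = 0.357), or -9.87%. Leaving out single arrays gave changes of -0.19 to -0.11. The unadjusted p in limma was not under 0.05 with the trend and robust prior, or without saline array 1, 5 or 6. Slc25a23 (SCaMC-3), the third calcium-regulated carrier of this type, had 11.52, 11.43, 11.51 and 11.48 with saline and 11.44 and 11.50 with ethanol. Its groups overlapped, with a difference of -0.01 ± 0.06 and an interval of -0.14 to 0.11. The fourth, Slc25a41, which lacks the calcium-binding part, was near background and differed by -0.06 ± 0.06. The ADP/ATP carriers of the respiring membrane, Slc25a4 (ANT1) and Slc25a5 (ANT2), differed by -0.06 ± 0.06 and -0.07 ± 0.06. Slc25a4 had 12.46, 12.40, 12.47 and 12.35 with saline and 12.36 and 12.37 with ethanol. Slc25a5 had 12.34, 12.27, 12.30 and 12.28 with saline, and 12.29 and 12.16 with ethanol, where ethanol array 4 alone lay below the saline values. Slc25a4 and Slc25a5 are closely similar genes that can share hybridisation, and Slc25a5 has further probesets, which gave -0.06 and -0.09.

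**Figure D4:**
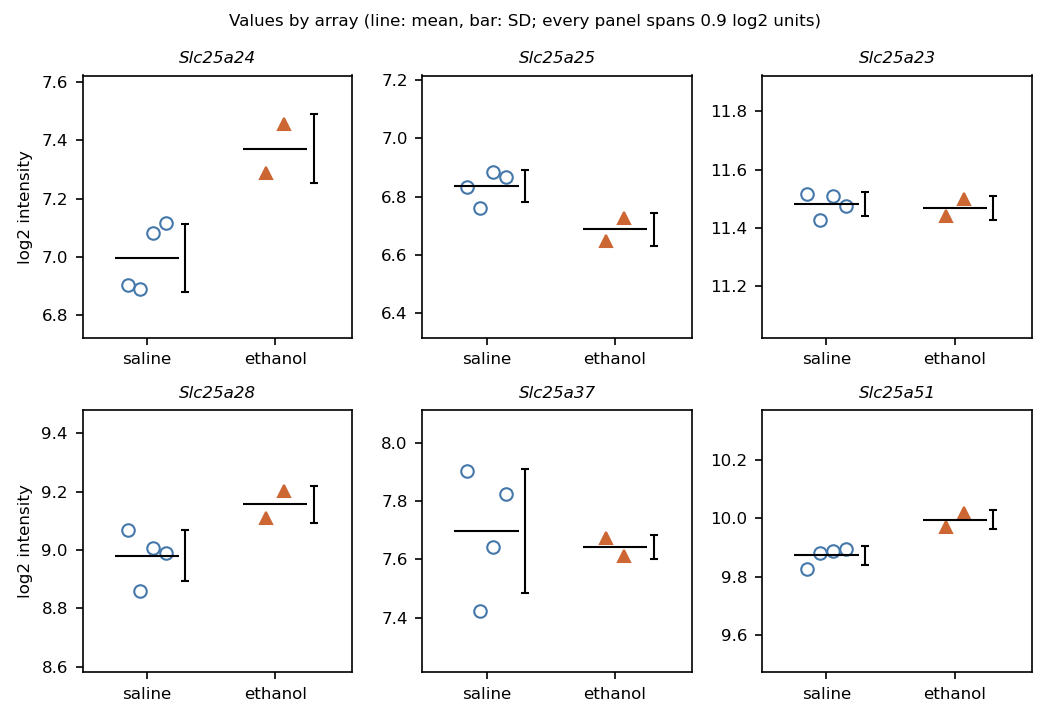
Log2 intensity by array for 6 members, with the group mean as a line and the SD as a bar (4 saline arrays as circles, 2 ethanol arrays as triangles), and with an equal height of 0.9 log2 units in every panel. The triangles stand above the circles for Slc25a24, Slc25a28 and Slc25a51, below them for Slc25a25, and among them for Slc25a23 and Slc25a37.

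Promoter windows of RefSeq (GRCm38.p6, 250 bases before to 50 after a start) are shown for Slc25a24 and Slc25a25, the paralogues at opposite ends of the family's changes, and for Slc25a36, described next, since it and Slc25a25 were the 2 members whose windows hold the palindromic cyclic AMP response element TGACGTCA, in capitals. Slc25a25 has 3 such windows and the one with the element is printed, at chr2:32424017-32424316 on the minus strand. The others lie at chr3:109122899-109123198 on the plus strand (Slc25a24) and chr9:97110992-97111291 on the minus strand (Slc25a36).
Slc25a24: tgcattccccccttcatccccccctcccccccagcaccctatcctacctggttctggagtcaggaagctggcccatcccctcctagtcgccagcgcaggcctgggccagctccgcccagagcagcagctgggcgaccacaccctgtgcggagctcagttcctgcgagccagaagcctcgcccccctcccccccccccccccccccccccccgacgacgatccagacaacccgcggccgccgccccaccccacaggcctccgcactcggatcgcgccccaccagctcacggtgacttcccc
Slc25a25: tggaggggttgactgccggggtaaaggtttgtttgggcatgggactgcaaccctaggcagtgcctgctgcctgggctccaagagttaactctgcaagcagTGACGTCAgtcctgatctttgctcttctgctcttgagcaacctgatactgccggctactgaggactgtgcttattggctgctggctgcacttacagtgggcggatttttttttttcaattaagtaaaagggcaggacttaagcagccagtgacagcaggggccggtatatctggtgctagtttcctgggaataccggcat
Slc25a36: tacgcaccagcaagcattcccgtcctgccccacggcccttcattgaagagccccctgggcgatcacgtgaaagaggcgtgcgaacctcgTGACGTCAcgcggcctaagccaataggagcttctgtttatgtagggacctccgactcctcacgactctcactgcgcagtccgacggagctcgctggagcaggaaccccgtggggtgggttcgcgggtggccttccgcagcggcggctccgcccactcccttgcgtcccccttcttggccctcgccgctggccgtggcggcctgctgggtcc
The element begins 150 bases before the start in the Slc25a25 window and 161 before it in that of Slc25a36, and the array does not tell transcripts from these starts apart. Windows were found for 40 members, 51 in all, and some windows of a gene overlap. Searched on both strands, TGACGTCA was in 2 of 51 (3.92%) and in 1.79% of all 32851 windows. The E-box CACGTG was in 8 of 51 (15.7%) against 7.15%, belonging to Slc25a1, Slc25a13, Slc25a14, Slc25a15, Slc25a31, Slc25a33 and Slc25a36. The letters CGCATGCG of NRF1 were in 1 (1.96%, Mtch2) against 1.87%, and TCAAGGTCA of the oestrogen-related receptors and TGTTTAC of FoxO factors were in 0 windows of members, against 0.423% and 3.65% of all windows. Windows of members had a median GC content of 59.7% against 52.7%, and a match is a stretch of letters, not a measured site.

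Of the 8 carriers of nucleotides and coenzymes, all tested, 3 had separate groups (37.5%, beside 22.6% of all tested genes). Slc25a51, the NAD+ carrier of mitochondria, had 9.83, 9.88, 9.89 and 9.89 on saline arrays 1, 3, 5 and 6 and 9.97 and 10.02 with ethanol. Every ethanol value lay above the saline values, a difference of 0.12 ± 0.06 (limma adjusted p = 0.419) or 8.87%. Slc25a36, a pyrimidine nucleotide carrier, had 11.46, 11.27, 11.44 and 11.45 against 11.54 and 11.55, a difference of 0.14 ± 0.07 (limma adjusted p = 0.430). Its saline array 3 was low, and the change was 0.097 without that array. A second probeset of Slc25a36 with a lower signal gave 0.02 with overlapping groups, so the separation rested on the probeset chosen. Which probeset measures the transcript better was not tested. Slc25a33, the other pyrimidine nucleotide carrier and near background, differed by -0.10 ± 0.07, or -0.0416 without ethanol array 4 and -0.163 without ethanol array 2. Slc25a16, linked to coenzyme A supply, had 9.85, 9.84, 9.91 and 9.83 with saline and 9.76 and 9.80 with ethanol, lower on both arrays by -0.08 ± 0.06 in the fit. The other carriers of the group were Slc25a17, the peroxisomal coenzyme carrier, Slc25a26, which imports S-adenosylmethionine, Slc25a32, for folate and FAD, and Slc25a42, for coenzyme A. They differed by -0.01 ± 0.09, 0.04 ± 0.08, 0.01 ± 0.06 and -0.05 ± 0.06, and their groups overlapped.

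Amino acid and glutathione carriers showed no separation between groups. All 11 members were tested and all 11 overlapped, where 22.6% of all tested genes had separate groups. Changes of the 11 members ran from -0.10 to 0.12, with a median of -0.02. Aralar (Slc25a12) had 11.58, 11.47, 11.55 and 11.60 with saline and 11.57 and 11.55 with ethanol, a difference of 0.02 ± 0.06 with an interval of -0.12 to 0.15. The glutamate carriers Slc25a22, mutated in early infantile epilepsy, and Slc25a18, the form typical of astrocytes, differed by -0.02 ± 0.06 and -0.05 ± 0.06. Slc25a22 had 10.30, 10.13, 10.28 and 10.23 with saline, and 10.22 on both ethanol arrays, in the middle of that range. Slc25a44, the branched-chain amino acid carrier, led the group on the higher side with 0.12 ± 0.08 (limma adjusted p = 0.574). Its ethanol values of 10.06 and 10.07 lay beside the 10.06 of saline array 5, while saline array 3 was at 9.80, without which the change was 0.0658. Slc25a40 and Slc25a39, both carriers of glutathione, differed by -0.10 ± 0.07 and 0.02 ± 0.07. The Slc25a40 change rested on ethanol array 2, since it was -0.00732 without that array and -0.191 without ethanol array 4. The ornithine carrier Slc25a15 and the glycine carrier Slc25a38, which feeds haem synthesis, each differed by -0.04 with an SE of 0.07 and 0.06.

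Of the 4 tested carboxylate and carnitine carriers, only Slc25a10 had separate groups (25%, beside 22.6% of all tested genes). This dicarboxylate carrier, which exchanges malate or succinate for phosphate, had 8.27, 8.25, 8.31 and 8.23 with saline and 8.18 and 8.14 with ethanol. Both ethanol arrays were below the saline arrays by a small margin, and the difference was -0.10 ± 0.06 (limma adjusted p = 0.517). The oxoglutarate/malate carrier Slc25a11, partner of Aralar in the malate-aspartate shuttle, had 11.19, 10.91, 11.15 and 11.08 against 11.16 and 11.16. The Slc25a11 difference was 0.08 ± 0.08, or 0.0191 without saline array 3. The citrate carrier Slc25a1, which exports citrate for lipid synthesis, differed by -0.06 ± 0.07, and the carnitine/acylcarnitine carrier Slc25a20 by 0.05 ± 0.06. Groups of these members overlapped.

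Phosphate and iron carriers held the second member with an unadjusted p under 0.05. Slc25a28 (mitoferrin 2), the iron importer of non-erythroid cells, had 9.07, 8.86, 9.00 and 8.99 on saline arrays 1, 3, 5 and 6 and 9.11 and 9.20 with ethanol. Both ethanol values were above the saline values, by 0.18 ± 0.07 or 12.9% (limma adjusted p = 0.336), with saline array 1 the nearest. Its paralogue Slc25a37 (mitoferrin 1), typical of erythroid cells, varied among the saline arrays, at 7.90, 7.42, 7.64 and 7.82, and lay within that range with ethanol, at 7.67 and 7.61. Its difference was -0.06 ± 0.11. The 2 tested erythroid markers varied as well, with Alas2 at 8.67 ± 0.30 (SD, n = 4) and 8.44 ± 0.42 (SD, n = 2) and Slc4a1 at 7.00 ± 0.17 and 6.82 ± 0.17, and the mean of the 4 markers matched was 6.68, 6.48, 6.62 and 6.59 with saline and 6.58 and 6.34 with ethanol. Their part in the Slc25a37 values was not tested. The phosphate carrier Slc25a3, needed for ATP synthesis, had 12.93, 12.80, 12.89 and 12.82 with saline and 12.84 and 12.90 with ethanol, a difference of 0.01 ± 0.06.

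Among the brain members of the uncoupling protein branch, all 3 had overlapping groups, where 22.6% of all tested genes had separate ones. Slc25a14 (UCP5) had 8.32, 8.40, 8.41 and 8.41 with saline and 8.26 and 8.37 with ethanol, and Slc25a27 (UCP4) 9.09, 9.04, 9.08 and 9.27 against 9.16 and 9.12. Their differences were -0.06 ± 0.06 and 0.02 ± 0.07. Slc25a30 differed by 0.10 ± 0.08, with a saline array 3 at 8.21 below the other saline values of 8.42 to 8.46. Its change was 0.0394 without that array, 0.0296 without ethanol array 2 and 0.161 without ethanol array 4. In the outer membrane, Mtch1, Mtch2 and Slc25a46, a factor of mitochondrial shape, differed by 0.05 ± 0.07, -0.05 ± 0.06 and 0.01 ± 0.06. Mtch2, an insertase for outer membrane proteins and a receptor of the apoptotic protein tBID, had 11.65, 11.73, 11.69 and 11.57 with saline and 11.59 and 11.62 with ethanol. A second probeset of Mtch2 gave -0.06 with both ethanol arrays below all saline arrays, whereas the groups overlapped on the probeset used. Of the 8 members for which no substrate is named here, 5 were tested. Slc25a35 had 7.35, 7.39, 7.47 and 7.36 with saline and 7.33 and 7.19 with ethanol, lower on both arrays by -0.13 ± 0.07 in the fit (limma adjusted p = 0.434). The Slc25a35 change was -0.0658 without ethanol array 4 and -0.203 without ethanol array 2. Slc25a53 differed by -0.05 ± 0.06 with overlapping groups. Slc25a47, near background, had the widest saline range of the tested members, from 5.60 to 6.09.

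Genes that work with the carriers were read from lists of their import machinery, shuttle enzymes and regulators, and none of them passed in limma. The counts at an unadjusted p under 0.05 were 1 of 15 for import, 2 of 17 for pores and transporters, 1 of 10 for haem and iron-sulphur genes, 1 of 11 for regulators and 0 for the other 3 lists, where all tested genes gave 12.3%. Carriers reach the inner membrane through the TOM pore, small TIM chaperones and the TIM22 insertase. Of these 15 genes, 7 had both ethanol arrays below all saline arrays, 46.7% against 14.9% of all tested genes. In 1 other, Timm9, both lay above, with a difference of 0.04 ± 0.06. The overlap count was not among the counts planned for these lists. The median change of the 15 genes was -0.08 beside -0.02 over all tested genes. Tomm22, a TOM receptor, lay at 9.86 ± 0.09 with saline (SD, n = 4) and 9.69 ± 0.02 with ethanol (SD, n = 2), differing by -0.17 ± 0.07 (limma adjusted p = 0.335), and Tomm70a, the receptor that binds carrier precursors, differed by -0.14 ± 0.07 (0.418). The insertase gene Timm22 differed by 0.04 ± 0.06 with overlapping groups. Without ethanol array 4 the median of these genes was -0.03 beside -0.02 for all genes, and over the other settings it was -0.10 to -0.06.

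The 17 tested pores and other inner membrane transporters had 2 members at an unadjusted p under 0.05, the calcium uniporter Mcu (-0.15 ± 0.06, limma adjusted p = 0.333) and its regulator Micu2 (-0.20 ± 0.09, 0.359). The 7 shuttle and glutamate enzymes all overlapped between groups, led by Gpd1 and Gpd2 at -0.04 ± 0.07 each. Over all tested genes, 22.6% had separate groups. Of 7 carnitine and citrate enzymes, Cpt2 differed by 0.12 ± 0.06 and Acly by -0.10 ± 0.06. All 16 ATP synthase genes overlapped, with a median of 0.00, led by Atp5k (0.10 ± 0.07) and Atp5a1 (0.07 ± 0.06). Among 10 haem and iron-sulphur genes, Nfs1, the cysteine desulphurase that supplies sulphur for clusters, went from 7.97 ± 0.16 to 8.36 ± 0.05. Its groups were separate, with a difference of 0.39 ± 0.09 (limma adjusted p = 0.120), and Iscu, the scaffold on which clusters form, lay the other way at -0.16 ± 0.07. Of 11 transcriptional regulators, Pprc1 differed by -0.28 ± 0.13 and Gabpa by 0.17 ± 0.08, and Ppargc1a, the coactivator of mitochondrial biogenesis, by 0.00 ± 0.07.

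**Figure D5:**
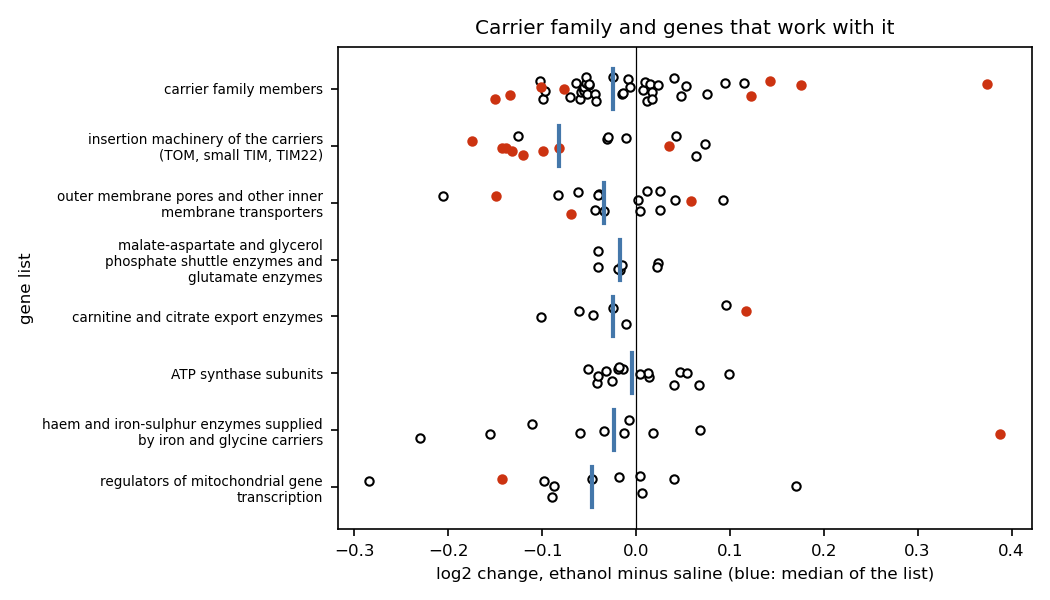
Log2 change, ethanol minus saline, of each tested gene in the carrier family and in 7 lists of genes that work with it, with the median of each list as a blue bar and filled points where the 2 groups do not overlap. The insertion machinery has 7 filled points below 0 and 1 above, and Slc25a24 and Nfs1 are the points farthest to the right.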

How the data were processed

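The authors deposited 1 log2 value per probeset and array for 35556 probesets, the log base being inferred from the range (4.10 to 14.9). Per the submitters' processing notes the tool was Partek 6.6. How background and normalization were handled is not given in any source used here. The deposited values were kept, and another normalization could move small one-way changes. The annotation named 1 gene for 21789 probesets (21701 matched a current record) and several for 1621, which were not used. The 4984 dimmest of 19936 genes (mean up to 5.55) were left out. limma 3.58.1 (R 4.3.3) fitted treatment alone on all 6 arrays, two-sided, with Benjamini-Hochberg adjustment over 14952 genes at 0.05, and its prior of 8.10 degrees of freedom joined 4 residual ones. The fit was tested on simulated data. Since replicates are pools of separate pups, the p-values reflect how much pools vary. The planned comparison of member proteins was not made.

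Members described in full were the 8 smallest p-values in each direction, the 2 smallest in each role group and 14 textbook genes, with the 2 smallest per partner list. Ppargc1a, Timm22, Slc4a1 and further members were added after their values were seen. The members and lists were chosen with earlier results of these data known. Alternatives covered the filter, probeset choice, scaling, variance prior, array weights and each array left out.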

Additional observations from a re-analysis of the deposited data

Results flagged for a closer look

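Among the 4 saline arrays, 1 array stood far from the others for 4 of 43 members checked, where chance gives about 1 in 20. Array 3 was low for Slc25a36, at 11.27 against 11.44 for the nearest, with a gap of 0.857 of the range, and for Slc25a30, at 8.21 against 8.42, with a gap of 0.868. Array 1 was low for Slc25a14, at 8.32 against 8.40, with a gap of 0.928. Array 6 was high for Slc25a41, near background, at 5.64 against 5.58, with a gap of 0.928.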

How the results depend on the processing

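No paired analysis was possible because the labels share no replicate number between the groups. No member passed the threshold under any of 15 alternatives in limma, with 2 to 5 members at an unadjusted p under 0.05 beside 7.83% to 13.8% of all genes. Over all genes 0 passed with every probeset and with no variance prior, and up to 56 with array weights. Members at an unadjusted p under 0.05 numbered 3 as reported and 5 after median centring and after quantile normalization, and 2 to 5 with single arrays left out, the 5 being without saline array 3. Members whose ethanol arrays lay beyond all saline arrays numbered 8 as reported, with 5 above and 3 below after median centring and quantile normalization, 3 above and 5 below with the mean of a gene's probesets (Slc25a36 at 0.0805), and 9, 4 above and 5 below, with no filter. With single arrays left out they numbered 9 to 17 (13 without saline array 1, 14 without ethanol array 2 and 17 without ethanol array 4), while the share of all tested genes was 27.3% to 48.4%, since fewer arrays separate more easily. The members' median ran from -0.0319 to -8.75e-05. Slc25a24 had an unadjusted p under 0.05 in 14 of the 15 and was not tested with the dimmest 50% of genes left out. Of the 43 tested members, 23 kept their sign throughout; the 15 outside the naming rule were run after seeing the data. Values of the others turned sign: Slc25a3 (-0.000481), Slc25a12 (-0.0044), Slc25a27 (-0.00485) and Slc25a39 (-0.00239) with array weights, Slc25a13 (0.0495), Slc25a29 (0.0414), Slc25a41 (0.00831) and Slc25a45 (0.014) under quantile normalization, and Slc25a17 (0.000681) under median centring. With single arrays left out, changes ran from -0.0031 to 0.109 for Slc25a20, -0.147 to 0.0129 for Slc25a37, -0.117 to 0.0163 for Slc25a53, -0.0247 to 0.0401 for Slc25a3, -0.0107 to 0.0321 for Slc25a12, -0.0533 to 0.0356 for Slc25a13, -0.0488 to 0.00703 for Slc25a22, -0.00357 to 0.0734 for Slc25a27, -0.121 to 0.00458 for Slc25a41, -0.16 to 0.0611 for Slc25a45, -0.105 to 0.0198 for Slc25a15, -0.135 to 0.0288 for Slc25a47, -0.0527 to 0.135 for Slc25a26, -0.0543 to 0.00878 for Slc25a29, -0.0192 to 0.0413 for Slc25a39, -0.0433 to 0.0152 for Slc25a23, -0.0387 to 0.0654 for Slc25a43, -0.00828 to 0.0249 for Slc25a46, -0.0065 to 0.0199 for Slc25a32 and -0.0837 to 0.0492 for Slc25a17. The cause was not tested. The insertion machinery genes below all saline arrays, a check chosen after seeing the data, numbered 6 to 9. The 9 came without ethanol array 2 (60% against 28.1% of all genes), and without ethanol array 4 there were 7 (46.7% against 29.2%). Probesets near background limit what can be read for 14 members.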
